A study of Mus musculus with 14 samples.

Results

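The 10 genes described here encode the carnitine shuttle (Cpt1a, Cpt2, Slc22a5, Slc25a20) and the long- and medium-chain steps of mitochondrial fatty acid oxidation (Acadvl, Acadl, Acadm, Hadha, Hadhb, Acaa2). They were taken by gene name from the expression tables, where each matched 1 of 54446 gene identifiers, and all 10 passed the filter on low values that left 18232 genes for testing. As background, long-chain fatty acids enter mitochondria as carnitine esters. The plasma membrane transporter encoded by Slc22a5 brings carnitine into the cell, Cpt1a makes acylcarnitine at the outer mitochondrial membrane and is blocked by malonyl-CoA, Slc25a20 carries acylcarnitine across the inner membrane, and Cpt2 turns it back into acyl-CoA. Acyl-CoA dehydrogenases for very long (Acadvl), long (Acadl) and medium (Acadm) chains start each oxidation cycle. The trifunctional protein, with an alpha subunit from Hadha and a beta subunit from Hadhb, and the thiolase of Acaa2 complete it and release acetyl-CoA.

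Ribosome-depleted total RNA of E14 cells, a mouse embryonic stem (ES) cell line, was sequenced in 14 libraries, with 2 replicates in each of 7 groups. Wild-type (WT) cells were taken before treatment (0 h) and after 24, 72 and 144 h of mTOR inhibition (mTORi) with Ink128, a culture model of the dormancy called diapause, and cells labelled TET1/2 double knockout (DKO) at 0, 24 and 72 h. The DKO line was made with Cas9 guides to a pair of exons in each gene and grown from single sorted cells, so that genotype and clone cannot be told apart. The study describes its experiments as independent repeats, but the labels do not say how the 2 replicates of a group were separated, so p-values measure the spread between these libraries.

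Tet2 stood at 95.96 to 143 TPM in the 8 WT libraries and 15.9 to 22.2 TPM in the 6 DKO libraries, and Tet1 at 191 to 349 and 147 to 248 TPM. The Tet1 level in DKO overlapped that in WT, so it does not show the deletion, and a gene-level value cannot tell which exons it comes from. The study reports that it checked the knockouts by PCR and by western blot for TET1 and TET2. DKO below means the libraries so labelled. All 7 ES cell markers examined were present in each group, with a summed level of 3934 to 6141 TPM. Levels were compared as spike-in normalized TPM, the deposited TPM (a per-length share of each library's RNA, scaled to the same total in every library) multiplied by 1 factor a library from the study's spike-in normalized table, and the deposited TPM is given beside it. The factor was 2.11 in both WT libraries at 0 h, was 1.07 and 1 at 144 h, and differed between DKO replicates, with 2.81 and 2.38 at 0 h, 2.24 and 1.36 at 24 h, then 2.53 and 1.73 at 72 h. RNA was extracted from sorted cells in bulk, where fewer cells of a type and less RNA per cell cannot be told apart. The files give no read counts, so the depth behind each value is unknown from them.

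In the mm10 annotation of the files, Cpt1a (ENSMUSG00000024900.4) lay on the plus strand at chr19:3323301-3385732, Cpt2 (ENSMUSG00000028607.16) on the minus strand at chr4:107903981-107923610, Slc22a5 (ENSMUSG00000018900.7) on the minus strand at chr11:53864542-53891660 and Slc25a20 (ENSMUSG00000032602.6) on the plus strand at chr9:108662088-108684641. The dehydrogenase genes were all on minus strands, Acadl (ENSMUSG00000026003.5) at chr1:66830839-66863277, Acadm (ENSMUSG00000062908.12) at chr3:153922357-153944632 and Acadvl (ENSMUSG00000018574.14) at chr11:70010183-70015411. Hadha (ENSMUSG00000025745.12, minus strand, chr5:30118304-30155162) and Hadhb (ENSMUSG00000059447.13, plus strand, chr5:30155248-30184593) were head to head, with 85 bases between their starts. Acaa2 is ENSMUSG00000036880.9.

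Reads of some members may be shared. Hadhb shared a 1428-base stretch at 99.8% identity with Gm13910 and 1426 bases at 97.6% with Gm9108, Slc22a5 shared 831 bases at 98.3% with Slc22a21, and 256 bases of Acadvl transcripts were identical to Dvl2, which overlaps it on the opposite strand. Gm13910 stood at 2.04 to 4.36 TPM, Gm9108 at no more than 0.157 TPM and Slc22a21 at 0.312 to 1.60 TPM over the 14 libraries, beside 36.7 to 65.6 TPM for Hadhb and 3.51 to 6.38 TPM for Slc22a5. Acadl also overlaps Gm15793 on its own strand, Hadhb overlaps Mir1960 on its own strand, and Hadha overlaps Garem2 on the opposite strand. Values of these members are uncertain to that extent.

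The sequences before 9 of the members were read from RefSeq promoter windows of GRCm38.p6 (250 bases before to 50 bases after the start), the patch build of mm10. No window was found for Acaa2. The stretch between Hadha and Hadhb is shown because these partners moved apart in level, and the stretches before Cpt1a, Acadm and Acadvl because at 24 h in DKO Cpt1a was called higher and Acadm and Acadvl lower in deposited TPM, and because all 3 hold AGGTCA or its complement, the core hexamer of many nuclear receptor sites. Capitals mark matches on either strand to AGGTCA or CCGCCC (the Sp/KLF letters), and each stretch stops at the RefSeq start or at the nearest annotated exon.
Hadha-Hadhb, chr5:30155163-30155247, plus strand: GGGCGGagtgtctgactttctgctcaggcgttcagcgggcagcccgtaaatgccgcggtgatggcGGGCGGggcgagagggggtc
Cpt1a, chr19:3323051-3323284, plus strand: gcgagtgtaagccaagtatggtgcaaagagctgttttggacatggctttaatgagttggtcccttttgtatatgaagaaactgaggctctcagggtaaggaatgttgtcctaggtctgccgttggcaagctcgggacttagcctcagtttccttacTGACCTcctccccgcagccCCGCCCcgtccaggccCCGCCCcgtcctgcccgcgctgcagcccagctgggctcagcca
Acadm, chr3:153944644-153944893, minus strand: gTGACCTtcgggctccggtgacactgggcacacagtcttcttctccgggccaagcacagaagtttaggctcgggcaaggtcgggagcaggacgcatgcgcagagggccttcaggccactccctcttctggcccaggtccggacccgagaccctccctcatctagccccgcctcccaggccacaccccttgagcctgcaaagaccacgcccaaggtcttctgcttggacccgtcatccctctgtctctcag
Acadvl, chr11:70015429-70015678, minus strand: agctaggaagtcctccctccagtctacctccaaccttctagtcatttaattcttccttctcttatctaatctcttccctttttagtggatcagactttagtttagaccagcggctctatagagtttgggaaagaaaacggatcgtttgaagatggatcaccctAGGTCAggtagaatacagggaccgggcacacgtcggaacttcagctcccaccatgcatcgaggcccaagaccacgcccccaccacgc

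The Hadha-Hadhb stretch was 69.4% G and C and held GGGCGG, the complement of CCGCCC, at its Hadha end and again nearer to Hadhb. Over whole windows searched on both strands, CCGCCC was found in 7 of the 9 member windows (Acadl, Cpt2, Hadha, Hadhb, Slc25a20, Slc22a5 and Cpt1a) and in 35.7% of all 32851 windows. The Hadha and Hadhb windows share the match at the Hadha end of the stretch between them, so that match counts in each. AGGTCA was in 3 of 9 (Acadm, Acadvl and Cpt1a) and 16.3% of all. CCAAT was in 1 of 9 (Cpt1a, outside the stretch shown) and 37.4% of all. No member window held the E-box CACGTG, the FOXO letters GTAAACA or the ERR letters TCAAGGTCA, which contain AGGTCA, beside 7.15%, 3.65% and 0.423% of all windows. These matches describe letters in the windows and are not binding sites.

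In untreated WT cells the order of levels per length was Acadm (103 TPM), Hadhb (57.2), Hadha (56.2), Acaa2 (46.3), Slc25a20 (45.1), Acadvl (17.3), Cpt1a (15.3), Acadl (13.8), Cpt2 (7.85) and Slc22a5 (3.65), as means of deposited TPM over 2 libraries. The values of Hadhb, Hadha, Acaa2 and Slc25a20 overlapped with their neighbours in that order, as did those of Acadvl, Cpt1a and Acadl, so only the steps below Acadm, below Slc25a20, below Acadl and below Cpt2 separated all libraries. Slc22a5 was the lowest of the 10 in all 7 groups. Slc25a20 moved from place 5 at 0 h to place 1 at 24 h in WT, at 86.2 TPM, and led in DKO at 24 and 72 h, at 109 and 89.2 TPM. Its 24 h values overlapped with those of Acadm and Acaa2 in WT and of Acaa2 in DKO. Acadm and Acaa2 were both above it in the first WT replicate at 24 h. At 144 h Acadm and Hadha led in WT, at 66.3 and 65.4 TPM, and Cpt1a stood at 32.4 TPM, next below Hadhb.

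**Figure D1:**
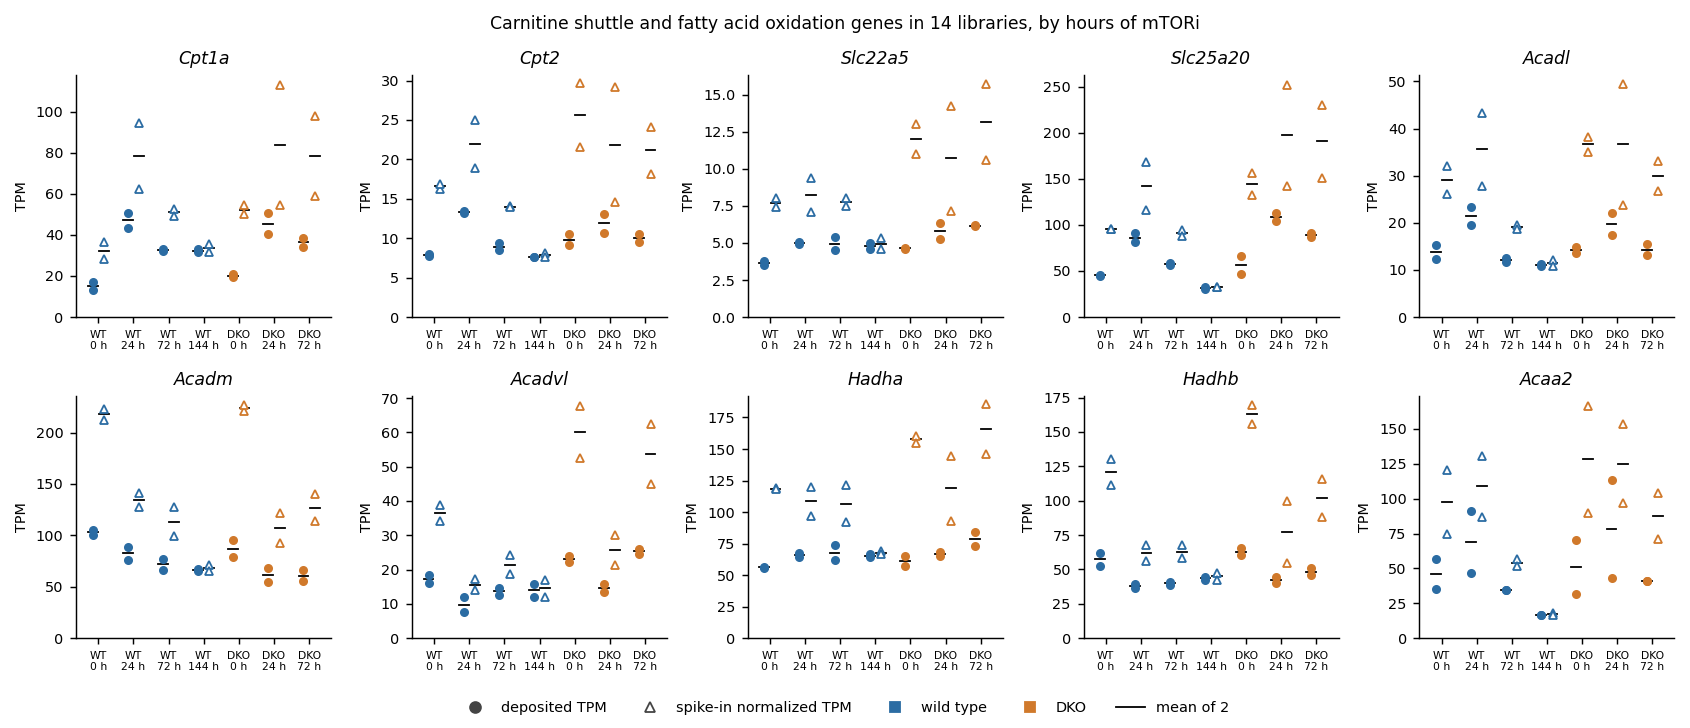
Level of each member in TPM (y axis) in the 7 groups of genotype and hours of mTORi (x axis), with deposited TPM as filled circles, spike-in normalized TPM as open triangles and a bar at the mean of 2 libraries. Deposited Cpt1a was 13.4 and 17.3 TPM in WT at 0 h and 31.5 TPM or more in every treated library of either genotype, while Hadhb was 52.8 TPM or more in the 4 libraries at 0 h and 51.0 TPM or less in all others.

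Cpt1a, the malonyl-CoA-sensitive entry step, rose at 24 h of mTORi in WT cells and was the only member called higher against 0 h on the spike-in scale at any time. Its spike-in normalized level was 36.4 and 28.2 TPM at 0 h, 62.3 and 94.3 at 24 h, 52.7 and 49.4 at 72 h, then 35.6 and 31.5 at 144 h in WT. In DKO it was 54.3 and 49.9 TPM at 0 h, 113 and 54.8 at 24 h, then 97.7 and 58.7 at 72 h. The WT libraries at 24 and 72 h lay above both at 0 h, and those at 144 h overlapped with 0 h. The log2 difference at 24 h in WT was 1.23 (SE 0.34, adjusted p = 0.025), that at 144 h was 0.06 (95% confidence interval -0.65 to 0.77, adjusted p = 0.89), and in DKO it was 0.59 (SE 0.34, adjusted p = 0.23) at 24 h. In deposited TPM, where WT went from 17.3 and 13.4 at 0 h to 43.4 and 50.9 at 24 h, 31.9 and 33.1 at 72 h, then 33.2 and 31.5 at 144 h, Cpt1a was called higher in all 5 comparisons with 0 h. The log2 differences there were 1.57, 1.05 and 1.04 in WT and 1.13 and 0.82 in DKO, each with SE 0.14 and adjusted p from 8.1e-05 to 0.0032. DKO stood at 19.3 and 21.02 TPM at 0 h, 50.6 and 40.4 at 24 h, then 38.6 and 34.0 at 72 h.

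Slc25a20, the inner-membrane carrier, followed Cpt1a at 24 h but not at 144 h. Deposited TPM was 45.2 and 45.1 at 0 h, 81.3 and 91.1 at 24 h, 56.9 and 59.0 at 72 h, then 30.3 and 32.7 at 144 h in WT, and 46.9 and 66.0, 113 and 105, and 91.1 and 87.4 at 0, 24 and 72 h in DKO. At 144 h both WT libraries were below all others of the series. On that scale it was called higher at 24 h in WT (log2 difference 0.92, adjusted p = 0.00081), at 24 h in DKO (0.95, adjusted p = 0.00088) and at 72 h in DKO (0.67, adjusted p = 0.0060), and lower at 144 h in WT (-0.51, adjusted p = 0.019). With spike-in normalization the same differences were 0.55, 0.39 and 0.37, none called, and -1.52 (SE 0.30, adjusted p = 0.00087), from 95.4 and 95.2 TPM at 0 h to 32.4 and 32.7 at 144 h.

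Cpt2, the inner-membrane transferase, was 7.72 and 7.99 deposited TPM at 0 h, 13.2 and 13.5 at 24 h, 8.51 and 9.34 at 72 h, then 7.60 and 7.57 at 144 h in WT. The 24 h rise was called in deposited TPM (log2 difference 0.69, adjusted p = 0.0024) and not with spike-in normalization (0.37, adjusted p = 0.51). At 144 h the reverse held, with -0.99 (SE 0.34, adjusted p = 0.022) on the spike-in scale and -0.04 (adjusted p = 0.82) in deposited TPM. In DKO, Cpt2 was 10.5 and 9.08 TPM at 0 h, 13.1 and 10.7 at 24 h, then 9.52 and 10.5 at 72 h, with no call on either scale. Slc22a5, the carnitine importer, ranged from 3.51 to 6.38 deposited TPM over the 14 libraries, and no comparison with 0 h was called on either scale. Its deposited TPM was above both 0 h libraries in all treated libraries of each genotype, by log2 0.28 to 0.37 (adjusted p = 0.060 to 0.16).

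Among the dehydrogenases, Acadm and Acadvl fell and Acadl moved with Cpt2. Spike-in normalized Acadm was 223 and 213 TPM at 0 h, 128 and 141 at 24 h, 127 and 99.0 at 72 h, then 71.6 and 65.7 at 144 h in WT, then 221 and 227 at 0 h, 122 and 92.6 at 24 h, then 140.04 and 114 at 72 h in DKO. No treated library of either genotype reached its 0 h libraries. The log2 differences in WT were -0.69 (adjusted p = 0.088), -0.95 (adjusted p = 0.028) and -1.65 (SE 0.26, adjusted p = 0.00016) at 24, 72 and 144 h, and in DKO -1.07 (adjusted p = 0.0076) at 24 h and -0.82 (adjusted p = 0.079) at 72 h. With the replicate number as a block, the WT 24 h and DKO 72 h differences were also called (adjusted p = 0.016 and 0.010). In deposited TPM Acadm was called lower at 72 h (-0.52) and 144 h (-0.63) in WT and at 24 h (-0.50) and 72 h (-0.51) in DKO, and the WT 24 h difference of -0.32 (adjusted p = 0.12) was called with the block (adjusted p = 0.0096).

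Acadvl had its lowest deposited TPM at 24 h. It was 18.4 and 16.2 at 0 h, 12.0 and 7.56 at 24 h, 14.7 and 12.5 at 72 h, then 15.8 and 12.0 at 144 h in WT, and 24.1 and 22.1, 13.4 and 15.8, and 24.6 and 26.1 at 0, 24 and 72 h in DKO. In DKO the 72 h libraries were back above those at 0 h, and in WT they were not. The fall at 24 h was called on both scales in both genotypes, with log2 -1.18 (adjusted p = 0.021) in WT and -1.20 (adjusted p = 0.012) in DKO after spike-in normalization, and -0.79 (adjusted p = 0.011) and -0.63 (adjusted p = 0.037) in deposited TPM. At 144 h in WT it was -1.29 (adjusted p = 0.0031) with spike-in normalization and -0.30 (adjusted p = 0.27) without. The WT 72 h difference of -0.75 on the spike-in scale (adjusted p = 0.14) was called with the replicate block (adjusted p = 0.012) and with the WT libraries fitted alone (adjusted p = 0.033).

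Acadl went the other way at 24 h, from 12.4 and 15.2 to 19.5 and 23.3 deposited TPM in WT and from 13.6 and 14.8 to 22.2 and 17.5 in DKO, and returned to 11.8 and 12.6 (WT) and 13.1 and 15.5 (DKO) at 72 h. The WT 24 h difference was called in deposited TPM (log2 0.60, adjusted p = 0.012), the DKO one of 0.45 was not (adjusted p = 0.051, and 0.041 with the replicate block), and neither was called with spike-in normalization (0.26 and -0.09, adjusted p = 0.66 and 0.87). At 144 h Acadl stood at 11.3 and 10.8 TPM, which was lower than 0 h on the spike-in scale (-1.27, adjusted p = 0.0056) and not called in deposited TPM (-0.29, adjusted p = 0.18).

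Hadha and Hadhb, whose products form the trifunctional protein together, parted under mTORi. Deposited Hadhb was 52.8 and 61.7 TPM at 0 h, 39.1 and 36.7 at 24 h, 41.2 and 39.0 at 72 h, then 44.5 and 42.3 at 144 h in WT, and 60.3 and 65.6, 44.6 and 40.1, and 45.8 and 51.0 at 0, 24 and 72 h in DKO. Hadha was 56.6 and 55.9, 67.7 and 64.7, 73.6 and 61.7, and 64.2 and 66.6 TPM at the same times in WT, and 57.1 and 65.3, 64.8 and 68.7, and 73.4 and 84.6 in DKO. Every treated library thus had less Hadhb than any 0 h library of its genotype, and in WT every treated library had more Hadha. Hadhb was called lower in all 5 comparisons with 0 h in deposited TPM (log2 -0.58, -0.50 and -0.39 in WT, -0.56 and -0.37 in DKO, adjusted p from 0.0022 to 0.023). Hadha was called higher only at 72 h in DKO (0.36, adjusted p = 0.030), and with the replicate block also at 72 h in WT (0.26, adjusted p = 0.046, and 0.11 without). With spike-in normalization Hadhb was called lower at 24 h in WT (-0.95, adjusted p = 0.044), at 144 h in WT (-1.40, adjusted p = 0.0012) and at 24 h in DKO (-1.13, adjusted p = 0.012). Its 72 h differences of -0.93 in WT and -0.68 in DKO were not called (adjusted p = 0.055 and 0.20) but were with the block (adjusted p = 0.0049 and 0.039). The WT one was also called with the filter raised to 5 TPM and with the WT libraries fitted alone (adjusted p = 0.043 and 0.0060). Hadha was called lower on that scale at 144 h in WT (-0.80, adjusted p = 0.022), where its deposited TPM differed by 0.22 in the opposite direction (adjusted p = 0.16).

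The ratio of Hadha to Hadhb TPM within a library, which no library factor can change, was 1.07 and 0.905 in WT at 0 h, 1.73 and 1.76 at 24 h, 1.79 and 1.58 at 72 h, then 1.44 and 1.57 at 144 h. In DKO it was 0.946 and 0.995 at 0 h, 1.45 and 1.71 at 24 h, then 1.60 and 1.66 at 72 h. All 10 treated libraries lay above all 4 untreated ones in either genotype. With the TPM of Gm13910 and Gm9108 added to Hadhb, the group means were 0.927, 1.63, 1.59 and 1.42 in WT and 0.908, 1.49 and 1.53 in DKO, against 0.988, 1.75, 1.69 and 1.51, and 0.971, 1.58 and 1.63 without. The ratios were not tested.

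**Figure D2:**
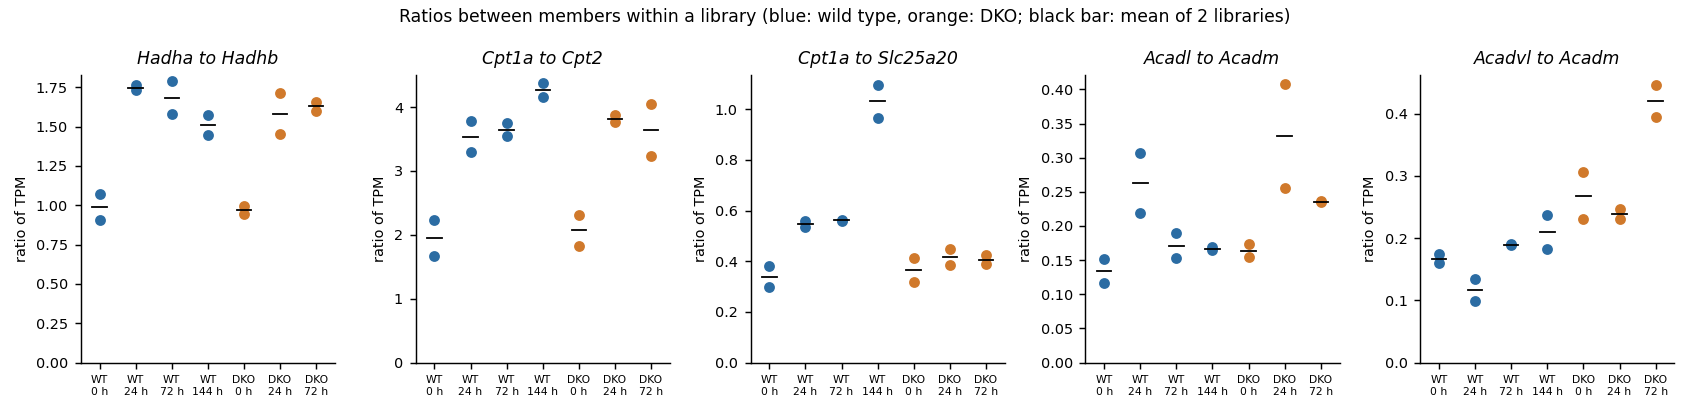
Ratio of deposited TPM (y axis) between pairs of members within each library, by genotype and hours of mTORi (x axis), with 1 point a library and a bar at the mean of 2. Hadha to Hadhb was 0.905 to 1.07 in the untreated libraries and 1.44 to 1.79 in the treated ones, and Cpt1a to Slc25a20 was about level with 1 only in WT at 144 h (1.10 and 0.964).

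Acaa2, the last thiolase of the cycle, had replicates far apart at 0 and 24 h and close together at 72 and 144 h in deposited TPM. It was 57.1 and 35.5 at 0 h, 91.2 and 47.0 at 24 h, 34.4 and 34.5 at 72 h, and 16.6 in both libraries at 144 h in WT, and 32.0 and 70.1, 43.3 and 113, and 41.1 and 41.3 at 0, 24 and 72 h in DKO. Both 144 h libraries were below all others. The difference from 0 h at 144 h was -2.40 (SE 0.34, adjusted p = 7.8e-05) with spike-in normalization and -1.39 (SE 0.47, adjusted p = 0.049) in deposited TPM, and no other comparison with 0 h was called without the block. With it, the WT 72 h difference of -0.80 on the spike-in scale was called (adjusted p = 0.032, and 0.14 without). The summed TPM of 6 trophectoderm markers, nearly all from Krt8 and Krt18, was high in the same libraries at 24 h, at 125 and 36.9 in WT and 23.9 and 59.9 in DKO, and at 0 h was 28.9 and 27.6 in WT and 20.4 and 39.0 in DKO. At 72 and 144 h it was 17.6 to 22.3. Elf5 among these markers was under 1 TPM in every group, and their part in the Acaa2 values was not tested.

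Counted together after spike-in normalization, WT cells at 24 h had 1 member called higher (Cpt1a) and 2 lower (Acadvl and Hadhb) of 10, beside 1.25% and 8.73% of all 18232 genes tested called higher and lower. The members' median log2 difference was 0.12, and that of all genes tested -0.33. In deposited TPM 4 were called higher (Cpt1a, Slc25a20, Cpt2, Acadl) and 2 lower (Acadvl, Hadhb), beside 15.8% and 14.1% of all genes, with medians of 0.45 for the members and -0.01 for all genes. Leaving out any 1 of the 4 libraries on the spike-in scale left 1 call (Cpt1a, without the first 24 h replicate) or 0, beside 2.01% to 6.34% of all genes in either direction. In deposited TPM Cpt1a, Cpt2, Slc25a20 and Hadhb were called each time, while Acadl and Acadvl were lost without the first 0 h or the second 24 h replicate. The summed TPM of 8 primitive and visceral endoderm markers was 87.1 and 144 in these 24 h libraries, 10.5 and 34.9 at 0 h in WT, and 10.5 to 52.9 in all other libraries. Of the 5 of them tested, 4 were called higher at 24 h in WT and 0 in DKO on the spike-in scale. Afp, Ttr and Apoa1 were under 1 TPM in every group. The part of these markers in the members' differences was not tested.

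At 72 h in WT, Acadm alone was called lower and no member higher after spike-in normalization, beside 7.6% and 0.697% of all genes. The members' median was -0.40 and that of all genes -0.33. With the replicate block, 4 members were lower, namely Acadm, Acadvl, Hadhb and Acaa2, beside 28.3% of all genes in either direction. Leaving out any 1 of the 4 libraries left 0 calls, beside 0.367% to 2.54% of all genes. In deposited TPM Cpt1a was called higher and Acadm and Hadhb lower, beside 12.6% and 11.4% of all genes, and Cpt1a and Hadhb remained called without any 1 of the 4 libraries while Acadm remained only without the first 72 h replicate.

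At 144 h in WT, 8 of 10 members were called lower and 0 higher after spike-in normalization, beside 50.5% and 0.461% of all genes tested. Cpt1a and Slc22a5 were the members not called. The median log2 difference was -1.28 for the members and -0.83 for all genes. In deposited TPM, where the median of all genes was 0.05 and that of the members -0.30, Cpt1a was called higher and 4 members lower (Slc25a20, Acadm, Hadhb, Acaa2), beside 15.6% and 11.7% of all genes. Slc25a20, Acadm, Hadhb and Acaa2 were called on the spike-in scale without any 1 of the 4 libraries. Cpt2 and Hadha were lost each time, Acadl without the second replicate of either group, and Acadvl without the second 144 h replicate, which left 4 calls. These fits called 21.4% to 34.9% of all genes. In deposited TPM only Cpt1a kept its call throughout, with 0 to 1 lower calls left.

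In DKO at 24 h, 3 members were called lower (Acadm, Acadvl, Hadhb) and 0 higher after spike-in normalization, beside 18.7% and 0.505% of all genes, with medians of -0.25 for the members and -0.49 for all genes. In deposited TPM the same 3 were lower and Cpt1a and Slc25a20 higher, beside 13.3% and 11.6% of all genes. The summed TPM of 3 neural markers went from 13.5 and 11.4 at 0 h to 5.35 and 6.44 at 24 h in DKO. In WT it went from 14.7 and 17.4 to 8.24 and 6.82. Whether these markers bear on the members' differences was not tested. The DKO 24 h replicates had spike-in factors of 2.24 and 1.36. Leaving out the first of them gave 4 calls (Hadha besides the 3) beside 48.3% of all genes in either direction, a share like that of the members, and leaving out the second gave 1 (Cpt1a) beside 6.32%. Leaving out the first or second 0 h replicate gave 0 and 1 (Acadvl) beside 4.47% and 9.1%. In deposited TPM Cpt1a, Slc25a20 and Hadhb were called without any 1 of the 4 libraries, Acadm without the first 0 h or the second 24 h replicate, Acadl without the second 24 h replicate, and Acadvl in no such fit.

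In DKO at 72 h no member was called after spike-in normalization by limma, with 2 of 10 at an unadjusted p under 0.05 beside 19.7% of all genes, and 2 called with the replicate block (Acadm and Hadhb), beside 18.5% of all genes in that fit. Of all genes, 0.713% were called higher and 2.95% lower. In deposited TPM Cpt1a, Slc25a20 and Hadha were higher and Acadm and Hadhb lower, beside 17.2% and 9.06% of all genes. Cpt1a and Slc25a20 were called without any 1 of the 4 libraries. The other calls depended on the library left out, Hadha being kept and Acadm and Hadhb lost without the second 0 h or the first 72 h replicate, and the reverse without either of the others.

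**Figure D3:**
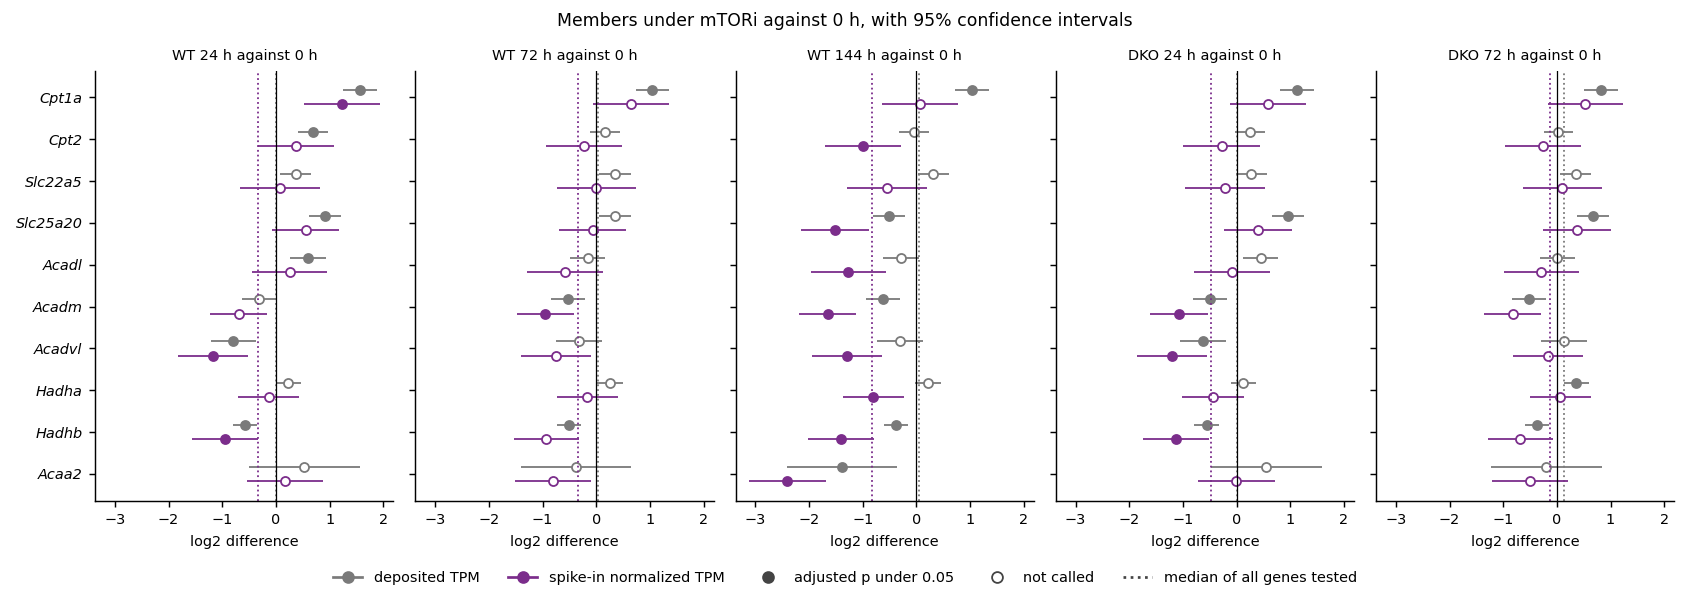
Log2 difference from 0 h of the same genotype (x axis) for each member (y axis) in deposited TPM (grey) and spike-in normalized TPM (purple), with 95% confidence intervals from limma, filled points called at an adjusted p under 0.05 and dotted lines at the median of all genes tested. Cpt1a lies to the right of the dotted line in every panel on either scale and Acadm and Hadhb to its left, and 8 purple points are filled at 144 h in WT.

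Between treated times the members moved as follows. From 24 to 72 h in WT no member was called by limma after spike-in normalization (2 at an unadjusted p under 0.05 beside 10.2% of all genes, and Acadl at -0.83 and Acaa2 at -0.97 with the replicate block, adjusted p = 0.0499 and 0.035), beside 0.987% of all genes in either direction, and 6.6% with the block. In deposited TPM Acadl (-0.76), Slc25a20 (-0.56), Cpt2 (-0.53) and Cpt1a (-0.52) fell, adjusted p from 0.012 to 0.043, beside 11% of all genes, and with the block Acadvl (0.47, adjusted p = 0.036) was also called, beside 17.7%. No single library could be left out with all of these calls kept, and Acadl alone of the 4 stayed called without the first 24 h or the second 72 h replicate. From 72 to 144 h in WT all 10 members were lower on the spike-in scale, Slc25a20 (-1.45, adjusted p = 0.041) and Acaa2 (-1.60, adjusted p = 0.044) with a call, beside 0.395% of all genes. The median was -0.66 for the members and -0.50 for all genes. With the block Cpt2, Acadm and Hadha were called as well (adjusted p = 0.035, 0.031 and 0.048), beside 18.6% of all genes. With 1 block across all libraries instead, no member was called, beside 0.23% of all genes. In deposited TPM only Slc25a20 was called (-0.86, adjusted p = 0.029), beside 0.357% of all genes. No member was called on either scale without any 1 of these 4 libraries. From 24 to 72 h in DKO Acadvl rose in deposited TPM (0.76, adjusted p = 0.047) and was the only member called, beside 5.96% of all genes. After spike-in normalization it was at 1.04 (adjusted p = 0.11, and 0.0039 with the block, which called 13.6% of all genes), no member was called by limma (1 at an unadjusted p under 0.05 beside 15.9% of all genes), and 1.42% of all genes were. With each library centred on its median gene Acadvl was at 0.67 (adjusted p = 0.12) and not called, and Acadl was called lower instead (-0.56, adjusted p = 0.046), beside 4.61% of all genes. The spike-in fit without the first DKO 24 h replicate called 3 (Acadvl, Hadha, Hadhb) beside 32% of all genes, and the Acadvl call in deposited TPM was lost without any 1 of the 4 libraries.

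Between genotypes, all 10 members had a higher mean in DKO than in WT at 0 and 72 h on the spike-in scale, with no call, and all but Acadm did in deposited TPM. On the spike-in scale all 16 genes of the other mitochondrial oxidation list described below were also above 0 at both times. Of the uptake list, 8 of 12 were, and the median of all genes was 0.29 and 0.49. At 0 h the log2 differences of DKO from WT ran from 0.04 (Acadm) to 0.70 (Acadvl), with a median of 0.50 for the members and 0.29 for all genes, and 0 members passed the limma test beside 0.0439% of all genes, with 1 at an unadjusted p under 0.05 beside 8.35%. In deposited TPM they ran from -0.25 (Acadm) to 0.40 (Acadvl), again with 0 calls by limma beside 0.598%, and 3 at an unadjusted p under 0.05 beside 13.9%. At 24 h they ran from -0.34 (Acadm) to 0.68 (Acadvl) on the spike-in scale and from -0.43 to 0.56 for the same genes in deposited TPM, with 0 calls by limma on either beside 0.0439% and 1.37% of all genes, and 1 and 3 at an unadjusted p under 0.05 beside 4.14% and 14.8%.

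At 72 h Acadvl and Slc25a20 showed the widest gap between genotypes. Acadvl was 14.7 and 12.5 deposited TPM in WT and 24.6 and 26.1 in DKO, and Slc25a20 was 56.9 and 59.0 in WT and 91.1 and 87.4 in DKO. Both were called in deposited TPM, Acadvl at 0.86 (SE 0.19, adjusted p = 0.040) and Slc25a20 at 0.61 (SE 0.13, adjusted p = 0.036), beside 4.01% of all genes. After spike-in normalization they were at 1.28 (SE 0.31, adjusted p = 0.081) and 1.03 (SE 0.30, adjusted p = 0.13), and no member was called by limma (4 at an unadjusted p under 0.05) beside 0.329% of all genes (23% at an unadjusted p under 0.05). With each library centred on its median gene neither was called, at 0.77 (adjusted p = 0.11) for Acadvl and 0.52 (adjusted p = 0.092) for Slc25a20, beside 1.69% of all genes. The median on the spike-in scale was 0.65 for the members and 0.49 for all genes. Both calls in deposited TPM were lost when any 1 of the 4 libraries was left out. Acadvl was higher in DKO in both libraries at every time, including 0 h, where its difference in deposited TPM was 0.40 (adjusted p = 0.39).

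**Figure D4:**
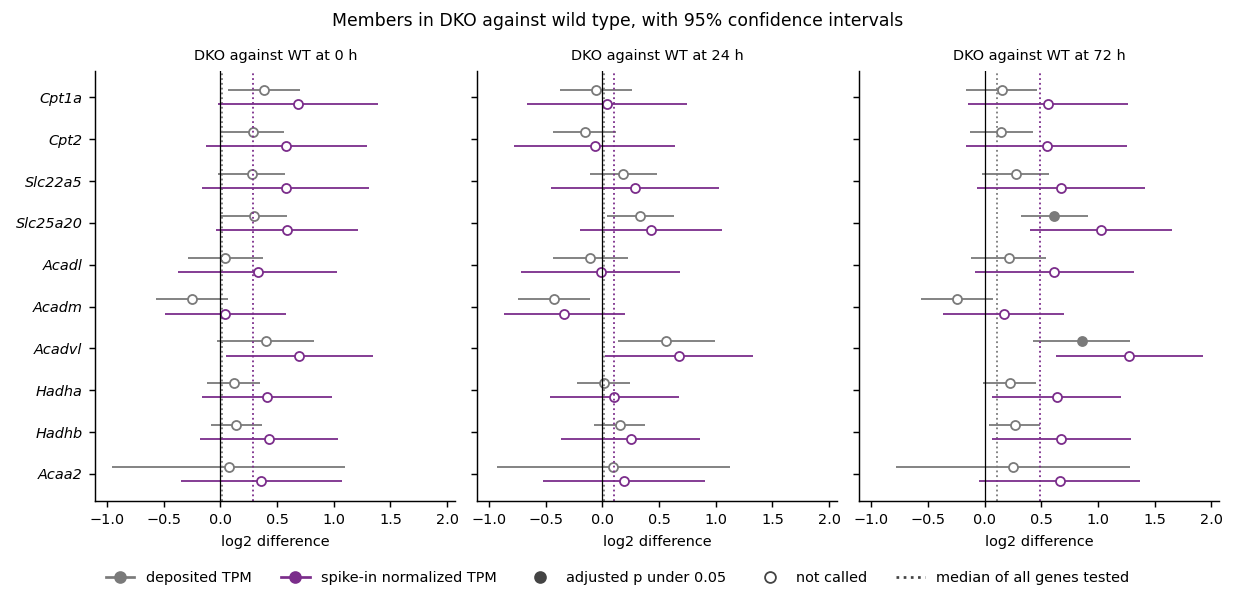
Log2 difference of DKO from WT (x axis) for each member (y axis) at 0, 24 and 72 h, in deposited TPM (grey) and spike-in normalized TPM (purple), with 95% confidence intervals from limma, filled points called at an adjusted p under 0.05 and dotted lines at the median of all genes tested. Only Acadvl and Slc25a20 at 72 h in deposited TPM are filled, at 0.86 and 0.61.

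The response to mTORi was compared between genotypes by the interaction term, the DKO change from 0 h minus the WT change. No member was called at 24 or 72 h on either scale by limma, with 1 at an unadjusted p under 0.05 (24 h, deposited TPM, beside 3.87% of all genes) and 0 otherwise. The share called was 0.00548% of all genes (24 h, spike-in scale) or 0%. At 24 h the largest differences were those of Cpt2 (-0.65, 95% confidence interval -1.66 to 0.35) and Cpt1a (-0.64, -1.64 to 0.36) after spike-in normalization. At 72 h that of Acadvl was 0.58 (-0.34 to 1.50). In deposited TPM the intervals of Cpt2 and Cpt1a at 24 h were narrower, with differences of -0.44 (-0.83 to -0.05, adjusted p = 0.999) and -0.44 (-0.89 to 0.0073). The tests do not show that the response was of equal size in both genotypes.

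The shuttle genes took a larger share of the group in treated cells. The 4 shuttle genes made up 19.6% and 19.8% of the members' summed TPM in WT at 0 h, 31.0% and 38.6% at 24 h, 28.7% and 32.0% at 72 h, then 25.8% and 26.3% at 144 h. In DKO they made up 23.5% and 23.2% at 0 h, 43.0% and 33.2% at 24 h, then 36.5% and 32.7% at 72 h. Every treated library was above the untreated libraries of its genotype. Acadm went from 28.1% and 28.3% to 19.3% and 18.3% at 24 h in WT and from 22.6% and 22.0% to 12.8% and 14.1% in DKO, while Slc25a20 went from 12.0% and 12.7% to 17.6% and 21.9% and from 13.5% and 15.2% to 26.5% and 21.6%. At 144 h in WT the shares of Slc25a20, at 10.3% and 11.2%, were below 0 h. Those of Cpt1a were 11.3% and 10.8% against 4.58% and 3.77% at 0 h, and those of Hadha were 21.7% and 22.9% against 15.0% and 15.7%. The mean over the 10 genes was 36.6 ± 1.50 TPM in WT at 0 h, 43.9 ± 3.22 at 24 h, 34.4 ± 1.50 at 72 h, then 29.3 ± 0.355 at 144 h, and in DKO 39.1 ± 6.17, 45.5 ± 4.16 and 41.1 ± 1.69 at 0, 24 and 72 h (SD, n = 2). As spike-in normalized TPM the same mean was 77.3 ± 3.16, 71.6 ± 7.73, 54.1 ± 6.29 and 30.3 ± 1.83 in WT and 100.4 ± 3.87, 80.4 ± 20.8 and 86.98 ± 19.8 in DKO. The shares and means were not tested.

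**Figure D5:**
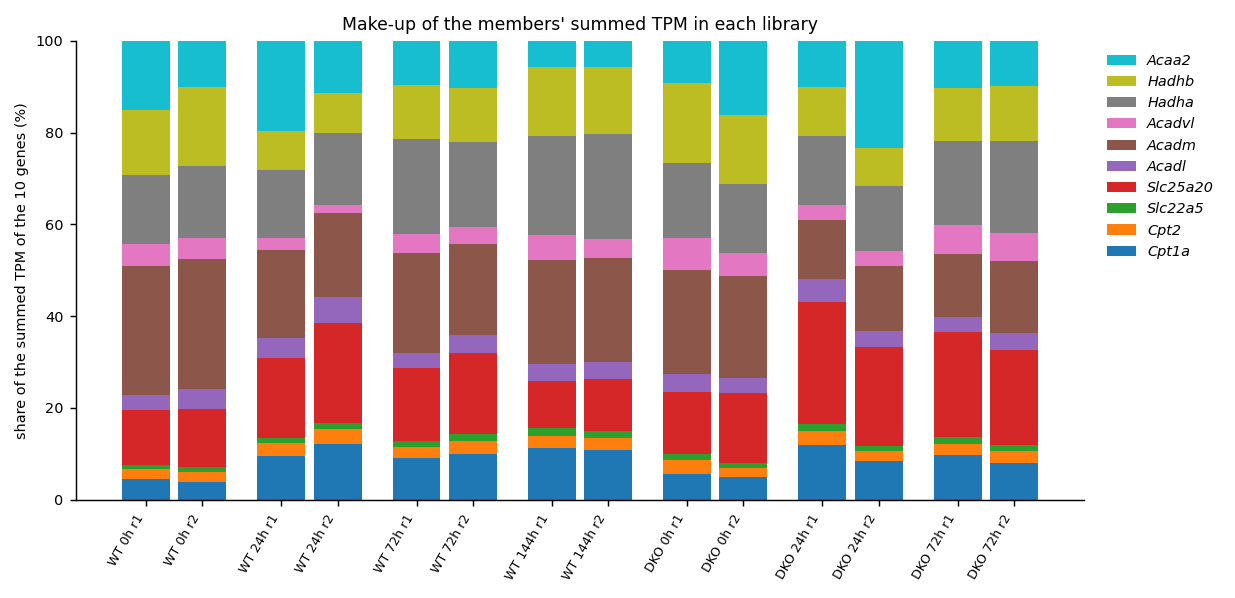
Share of the members' summed deposited TPM taken by each gene (y axis, %) in each library (x axis, r1 and r2 for the replicates), as stacked bars. Cpt1a and Slc25a20, the wide blue and red bands, widen from 0 h to 24 h in both genotypes, and Acaa2 at the top differs between the DKO replicates at 24 h, with 10.2% and 23.4%.

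Within the shuttle, the ratio of Cpt1a to Cpt2 was 2.24 and 1.67 in WT and 1.83 and 2.32 in DKO at 0 h, and 3.24 to 4.38 in the 10 treated libraries. The ratio of Cpt1a to Slc25a20 was 0.382 and 0.297 at 0 h, 0.534 and 0.558 at 24 h, 0.560 and 0.562 at 72 h, then 1.10 and 0.964 at 144 h in WT, and stayed between 0.318 and 0.448 in the 6 DKO libraries. Among the dehydrogenases, Acadl to Acadm was 0.117 and 0.151 in WT at 0 h and 0.218 and 0.307 at 24 h. Acadvl to Acadm was 0.446 and 0.395 in DKO at 72 h, above every other library, of which the highest was 0.306 (DKO at 0 h).

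Over the 14 libraries, the member most like Cpt1a in log2(deposited TPM + 1) was Slc22a5 (Pearson r = 0.77) and the least like it Hadhb (r = -0.82). Cpt2 and Acadl were each other's nearest (r = 0.90), and Cpt2 was also nearest to Slc25a20 (r = 0.81). Acadvl and Hadhb were each other's nearest (r = 0.71), Hadhb was nearest to Acadm (r = 0.48), Slc22a5 to Hadha (r = 0.66) and Slc25a20 to Acaa2 (r = 0.71). Acadm and Slc22a5 were the most opposed pair (r = -0.87). The negative values held only in deposited TPM. On the spike-in scale the lowest r of any pair was 0.04 (Cpt1a and Acadm), Slc22a5 and Acadm were at 0.53, Cpt1a and Hadhb were at 0.14, and the members nearest to Cpt1a and Slc22a5 were Slc25a20 (0.80) and Hadha (0.93). These values describe libraries that share a normalization and fall into 7 groups, and were not tested.

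The other genes of the pathway were followed as 7 lists. At 144 h in WT after spike-in normalization, no gene of any list was called higher. Counts of genes called lower were 5 of 7 tested for acyl-carnitine and carnitine, 7 of 12 for fatty acid uptake and activation, 10 of 16 for the other mitochondrial oxidation genes, 11 of 13 for peroxisomal oxidation, 5 of 10 for malonyl-CoA and AMPK control, 4 of 12 for transcriptional regulators, and 9 of 13 for lipid stores and ketone bodies, against 50.5% of all genes. The medians ran from -0.69 (regulators) to -1.23 (peroxisomal), with -0.83 for all genes. In deposited TPM the lower calls were 0, 0, 5, 5, 2, 1 and 4 and the higher calls 0, 2, 4, 0, 3, 5 and 1 in the same order, which makes 17 lower and 15 higher of 83 beside 11.7% and 15.6% of all genes.

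Of the genes called lower on the spike-in scale at 144 h, those furthest down in the carnitine list were the brain-type Cpt1c (-1.27), Aldh9a1 (-1.23), an enzyme of carnitine synthesis, and the carnitine acetyltransferase Crat (-1.05). In uptake and activation they were the fatty acid binding protein Fabp3 (-1.78), the acyl-CoA binding protein Dbi (-1.71) and Slc27a2 (-1.62), a transport protein with acyl-CoA synthetase activity. Among mitochondrial enzymes they were Acad11 (-1.92), the enoyl-CoA isomerase Eci2 (-1.66) and the short-chain dehydrogenase Acads (-1.63), and among peroxisomal ones Scp2 (-1.64), Ech1 (-1.63) and Ehhadh (-1.59). In the control list they were the AMPK subunits Prkag1 (-1.49) and Prkaa1 (-1.08) and Acaca (-1.27), which makes malonyl-CoA. Among regulators they were Tfeb (-1.66), Ppard (-1.24) and Pprc1 (-0.91), and in lipid stores the lipase inhibitor G0s2 (-1.87) and the lipase activator Abhd5 (-1.66). Each had an adjusted p of 0.0153 or less. In deposited TPM Cpt1c, Aldh9a1, Crat, Fabp3, Dbi, Slc27a2, Prkaa1, Ppard and Pprc1 were not called, and Pprc1 lay at 0.12, on the other side of 0.

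At 24 h the lists split by scale. After spike-in normalization 4 of the 83 genes tested in the 7 lists were called higher and 10 lower in WT, beside 1.25% and 8.73% of all genes, and 1 higher and 16 lower in DKO, beside 0.505% and 18.7%. In deposited TPM 24 were higher and 12 lower in WT, beside 15.8% and 14.1% of all genes, and 16 higher and 13 lower in DKO, beside 11.6% and 13.3%. The other mitochondrial oxidation genes had 0 of 16 higher and 0 lower in WT and 0 higher and 3 lower in DKO after spike-in normalization. In deposited TPM they had 8 of 16 higher and 0 lower in WT and 6 higher and 2 lower in DKO, among them, chosen after their values were seen, the electron transfer dehydrogenase Etfdh (0.59 and 0.69 in WT and DKO) and the dienoyl-CoA reductase Decr1 (0.92 and 0.89), which were not called after spike-in normalization (0.24 and 0.15 for Etfdh, 0.62 and 0.39 for Decr1).

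Of the 10 genes of the malonyl-CoA and AMPK list at 24 h in WT, 1 was called higher and 1 lower after spike-in normalization, with a median of -0.27 beside -0.33 for all genes. Both are enzymes of malonyl-CoA. Mlycd, which degrades malonyl-CoA, was 0.924 and 0.797 deposited TPM at 0 h and 4.92 and 5.32 at 24 h, a log2 difference of 1.73 after spike-in normalization (SE 0.40, adjusted p = 0.0091). Acaca went from 49.1 and 50.8 to 20.5 and 21.6 deposited TPM, a difference of -1.59 (SE 0.30, adjusted p = 0.0029). In DKO at 24 h Mlycd differed by 1.09 (adjusted p = 0.058, and 1.33 with adjusted p = 0.0010 in deposited TPM) and Acaca by -1.42 (adjusted p = 0.0036). The uptake list had 1 gene called higher and 5 lower of 12 after spike-in normalization, and the lipid store list 1 higher and 3 lower of 13. Of all genes, 1.25% were called higher and 8.73% lower in this comparison. The lower ones in the uptake list were Dbi (-1.59), Slc27a2 (-0.94) and the acyl-CoA synthetases Acsl3 (-1.27), Acsl4 (-1.22) and Acsl5 (-1.05). In lipid stores they were Angptl4 (-1.49), G0s2 (-1.36) and Bdh1 (-0.99), and adjusted p over both lists ran from 0.0033 to 0.04996. The higher ones were Fabp3 (1.89, adjusted p = 0.0054) and Plin2 (1.13, adjusted p = 0.017), a lipid droplet coat protein. In DKO they were at 0.41 and 0.37 with no call, and at 0.97 and 0.89 with a call in deposited TPM. In the peroxisomal list 1 gene was called higher and 1 lower of 13 in WT. Acox3, an oxidase, was called higher in WT and DKO (1.94 and 1.25, adjusted p = 0.0024 and 0.020). The reductase Pecr was called lower in WT (-1.27, adjusted p = 0.016). The marker sums given above for WT at 24 h apply to these genes as well. In DKO against WT at 72 h no gene of the 7 lists was called after spike-in normalization by limma, beside 0.329% of all genes, with 32 of 83 at an unadjusted p under 0.05 beside 23% of all genes, whose median difference was 0.49.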

How the data were processed

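Total RNA with ERCC spike-ins was sequenced after ribosomal RNA depletion (KAPA RiboErase kit). Per the labels, the authors trimmed reads with cutadapt 2.4, aligned them to mm10 with STAR 2.7.3a and quantified genes with StringTie 2.0. The deposited values are TPM, 1 file a library, each summing to 1000000, and hold no spike-in entries. Reads were not counted per gene in these files, so count tests were not used and the depth is unknown from them.

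TPM was summed per gene identifier. Each library was multiplied by its median ratio to the study's spike-in normalized table, of which the first 1999 rows were at hand; no expression value was taken from that table. Since this factor is common to all genes of a library, it does not change ratios within a library. The 18232 genes whose spike-in normalized TPM averaged 1 or more were fitted as log2(value + 1) in 7 groups of genotype and time with limma 3.58.1 (R 4.3.3, empirical Bayes with trend). Fold changes of low genes are understated on this scale. P-values were two-sided, were adjusted over all genes tested by the Benjamini-Hochberg method and were called under 0.05. Intervals are limma's 95% confidence intervals. The scripts were tested on simulated data, in which the smallest change simulated was not called with this number of libraries, so a difference with no call is not shown to be absent.

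All 10 members were named, and from each pathway list up to 3 genes in each direction with the largest called difference at 144 h in WT and in DKO against WT at 72 h. Of these, 1 gene is not reported here. The members and lists were chosen with earlier results of these data known. According to the study's reporting summary, the times of 1 biological replicate were handled side by side. Deviations of same-numbered libraries from their group means correlated at 0.222 to 0.341 within DKO and 0.0622 to 0.398 within WT (above 0.1 in 5 of 6 pairs of times), and at -0.431, -0.501 and -0.290 between genotypes at 0, 24 and 72 h. The replicate number was therefore used as a block within each genotype as an alternative fit. Other alternatives were deposited TPM, centring on the median gene, a pseudocount of 0.1, other filters, no trend and leaving out each library. Comparisons within a genotype were also fitted to the libraries of that genotype alone, and those between genotypes to the compared groups alone. Near-identical copies were found by comparing the transcripts of GRCm38.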

Additional observations from a re-analysis of the deposited data

How the results depend on the processing

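Calls of members depended on the scale and on single libraries. In deposited TPM 6, 3 and 5 members were called at 24, 72 and 144 h against 0 h in WT, 5 and 5 at 24 and 72 h in DKO, 4, 1 and 1 between treated times (WT 72 against 24 h, WT 144 against 72 h, DKO 72 against 24 h), and 2 in DKO against WT at 72 h, where the spike-in scale gave 3, 1, 8, 3, 0, 0, 2, 0 and 0. Centring each library on its median gene gave 6 and 3 (WT 24 and 72 h), 5 and 4 (DKO) and 3, 1 and 1 (treated times), the last being Acadl lower in place of Acadvl higher, beside 30.7%, 26.2%, 27.7%, 28.1%, 10.5%, 0.23% and 4.61% of all genes, and 0 in DKO against WT at 72 h. Without a filter on low values 0 were called at 24 h in WT and 0 from 72 to 144 h, and without the trend 0 at 72 h in WT and 0 from 72 to 144 h. A mean of at least 5 TPM gave 2 at 72 h in WT and 1 in DKO against WT at 72 h. Fitting only the libraries of the genotype in question gave 5 at 72 h in WT, 0 at 24 h in DKO and 5 from 72 to 144 h in WT. For the fits without a filter, without the trend, at 5 TPM and within 1 genotype, the share of all genes called is not given. Their counts can therefore not be set against it. The cause of the changes in calls was not tested.

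With the replicate block within each genotype, 4 (WT 72 h), 2 (DKO 72 h) and 2, 5 and 1 (treated times) members were called, beside 28.3%, 18.5% and 6.6%, 18.6% and 13.6% of all genes, and no call of the fit without the block was lost. DKO against WT could not be fitted with this block. With 1 block across all libraries 0 were called from 72 to 144 h and 1 in DKO against WT at 72 h, beside 0.23% and 0.296%. Chosen after seeing the data, the block in deposited TPM gave 7, 4 and 5 in WT, 6 and 5 in DKO, and 5, 1 and 1 between treated times, beside 37.1%, 32%, 35.5%, 31.9%, 35.8%, 17.7%, 1.14% and 12.8% of all genes. A crossed pairing with the DKO numbers swapped, also chosen after seeing the data, gave 3 (WT 72 h), 1 (DKO 72 h), 1 and 1 (72 against 24 h in WT and DKO) and 2 (DKO against WT at 72 h), beside 21.3%, 14.2%, 5.95%, 9.59% and 12.2% of all genes.

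Leaving out 1 library in turn, with the lone library of its group assumed to vary like the other groups, gave 0 to 1 calls at 24 h, 0 at 72 h and 4 to 6 at 144 h in WT, 0 to 4 at 24 h in DKO, 0 to 3 from 24 to 72 h in DKO and 0 from 72 to 144 h in WT. Of 1970 values of single members under an alternative, 1660 kept their direction and side of the threshold, 144 changed sign with no call under either setting, 93 passed the threshold newly, 68 lost it and 5 changed sign with a call. Those 5 were Hadha at 144 h in WT, at 0.22 in deposited TPM with and without the block and 0.0338 after centring, and, in deposited TPM with the block, Hadha at 72 h in WT (0.26) and Acadl at 24 h in DKO (0.45). With 2 libraries a group and no read counts, small differences and the counting error of low members such as Slc22a5 could not be judged.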
